A study of Homo sapiens with 16 samples.

Results

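N-glycans are sugar trees that the endoplasmic reticulum (ER) attaches to proteins as a mannose-rich precursor and that the Golgi apparatus rebuilds. The 10 genes described here encode enzymes of that rebuilding: the class I alpha-mannosidases MAN1A1, MAN1A2 and MAN1C1 of the Golgi and MAN1B1, which remove mannose from the precursor; the Golgi class II alpha-mannosidases MAN2A1 and MAN2A2, which remove further mannose; and the N-acetylglucosaminyltransferases MGAT1, MGAT2, MGAT4A and MGAT5, which start the branches. The order of action is MAN1 enzymes, MGAT1, MAN2 enzymes, MGAT2, and then MGAT4A and MGAT5, and the number of branches affects how long receptors and transporters stay at the cell surface. All 10 genes had reads in the deposited transcript tables, among 35810 genes with a matched transcript, and all 10 were among the 16705 genes that passed the low-count filter and were tested.

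The list was drawn up around the rise of MAN1A1 under latrunculin B, a drug that prevents actin from polymerising. The study also lists MAN1A1 among genes it took partly from these libraries, so its values are given as a description, without a test. The other 9 members belong to the same pathway, and their changes were tested. They too were chosen with earlier results of these data known.

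The cells were pancreatic progenitors grown from SA121 NGN3-GFP cells, an established human embryonic stem cell line in which a fluorescent reporter marks the endocrine factor NGN3 (gene NEUROG3), and all libraries came from this 1 line. Poly(A) RNA was sequenced from 16 libraries in 6 groups: control 0 h (n = 3), control 24 h in the solvent DMSO (n = 2), and 0.5 µM latrunculin B (LatB), with 3 libraries each at 3, 6 and 24 h and 2 at 12 h. All are labelled differentiation day 19, the day on which the study began its treatments, so the hours run from that day. The labels tag control 0 h with DMSO as well, whereas the series text places its harvest ahead of any treatment, so its exposure is not certain. Nothing in the labels says whether replicates were separate differentiations, so p-values measure the spread between these samples, which may be technical. LatB at 3, 6 and 12 h was compared with control 0 h and LatB at 24 h with control 24 h, so the first 3 comparisons share their control libraries. The 16 libraries include no DMSO controls matched in time to 3, 6 and 12 h.

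The libraries held 23609727 to 33515398 estimated reads. The 6 progenitor markers, among them PDX1, SOX9 and NKX6-1, summed to 480 to 500 TPM (abundance scaled for transcript length and library size) at control 0 h. The sum was 484 to 493 TPM at control 24 h and 387 to 443 TPM at LatB 24 h. Of these markers only FOXA2 had a higher mean at LatB 24 h (53.9 TPM) than at control 24 h (44.1 TPM). NKX6-1 had means of 49.8 TPM at control 0 h, 70.0 TPM at LatB 3 h and 45.5 TPM at LatB 24 h. The 8 endocrine markers summed to 58.3 to 72.7 TPM at control 0 h and 98.8 to 117 TPM at control 24 h. The sum was 134 to 232 TPM at LatB 3 h and 176 to 318 TPM at LatB 6 h. It was 179 to 184 TPM at LatB 12 h and 132 to 480 TPM at LatB 24 h. At LatB 24 h all 8 reached 1 TPM in at least 1 library. SST was the largest part of the sum, with means of 44.1 TPM at control 0 h, 142 TPM at LatB 3 h and 191 TPM at LatB 6 h. NEUROG3 had means of 0.701, 0.877 and 2.91 TPM in these groups. From control 0 h to LatB 3 h the means of INS (0.787 to 0.712 TPM) and GCG (0.172 to 0.0856 TPM) fell. Those of the other endocrine markers rose. The 3 gut markers summed to 139 to 160.0 TPM at control 0 h and 97.1 to 107 TPM at LatB 6 h, without overlap. In these bulk samples a gene at a lower level in each cell and fewer cells that express it cannot be told apart, and the part of these shifts in the results below was not tested. At LatB 12 h the 2 libraries stood apart from each other: the 4 mesenchyme markers summed to 38.8 TPM in replicate 1 and 235 TPM in replicate 2, and the 4 liver markers to 1077 and 2646 TPM. Most of the mesenchyme gap came from COL3A1 (27.3 and 207 TPM), while PDGFRA lay between 4.87 and 5.57 TPM. The acinar markers summed to 13.7 and 97.2 TPM and the endothelium markers to 3.12 and 12.1 TPM. The gut markers went the other way, at 121 and 58.6 TPM.

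MAN1A1 and MAN1C1 encode related Golgi enzymes whose levels under LatB lay on opposite sides of their controls. Their promoter windows are printed for that contrast, from 250 bases before to 50 bases after the RefSeq start, on the gene's own strand (RefSeq, GRCh38.p14); both starts coincide with the first base of the gene in GENCODE. Capitals mark every match to the GC box (GGGCGG) and the CCAAT box (CCAAT), on either strand, so that a match on the other strand reads CCGCCC or ATTGG.
MAN1A1, chr6:119349712-119350011, minus strand: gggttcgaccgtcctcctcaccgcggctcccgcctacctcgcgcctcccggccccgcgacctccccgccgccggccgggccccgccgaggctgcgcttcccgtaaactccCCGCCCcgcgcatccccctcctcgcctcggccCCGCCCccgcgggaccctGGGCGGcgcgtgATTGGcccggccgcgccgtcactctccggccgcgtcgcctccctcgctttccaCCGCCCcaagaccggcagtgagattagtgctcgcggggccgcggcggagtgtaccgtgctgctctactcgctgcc
MAN1C1, chr1:25616541-25616840, plus strand: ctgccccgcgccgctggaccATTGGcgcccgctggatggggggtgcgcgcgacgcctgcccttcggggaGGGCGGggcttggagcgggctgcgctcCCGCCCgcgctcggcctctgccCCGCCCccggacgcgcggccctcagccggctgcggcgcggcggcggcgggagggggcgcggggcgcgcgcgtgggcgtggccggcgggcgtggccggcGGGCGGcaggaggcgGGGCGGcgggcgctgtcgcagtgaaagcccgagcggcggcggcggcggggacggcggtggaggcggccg
The MAN1A1 window was 77.3% G or C with 47 CG pairs and held 4 GC boxes and 1 CCAAT box. The MAN1C1 window was 85.3% G or C with 57 CG pairs and held 5 GC boxes and 1 CCAAT box. Over all 35116 promoter windows of this length, the median was 58.7% G or C and 14 CG pairs, 45% held a GC box and 34.6% a CCAAT box. Neither window held the letters GGAATG of TEAD factors, which 14% of windows hold, GTAAACA of forkhead factors (3.42%), CACGTG of the E-box (7.26%) or the CArG box of serum response factor (1.29%), on either strand. A match is a description of the letters, not a binding site or a cause, and a missing match says only that these letters are not in this window. Of the members, 8 had a promoter entry in the RefSeq table, and MAN1A2 and MGAT4A did not. MAN1C1 had a further entry at chr1:25695905-25696204, which is not printed here. That window was 46.7% G or C with 5 CG pairs and held a GC box and a CCAAT box.

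MAN1A1 (ENSG00000111885.7; GRCh38, chr6:119177205-119349761, minus strand) lay between 73.1 and 89.0 CPM, which are counts scaled to library size, in the control 0 h libraries, with 77.0, 73.1 and 89.0 CPM. The control 24 h libraries had 84.4 and 86.4 CPM. The 2 control groups overlapped. At LatB 3 h the 3 libraries had 106, 118 and 104 CPM, and at 6 h they had 240.2, 229.7 and 235 CPM. At LatB 12 h the values were 112 and 149 CPM, and at 24 h they were 130.1, 113 and 131 CPM. Every LatB library was above every control library, the 6 h libraries were above all others, and the other LatB times overlapped with each other. On the log2 scale, MAN1A1 was higher than its control by 0.46 (SE 0.10) after 3 h and by 1.56 (SE 0.10) after 6 h. The difference was then 0.71 after 12 h and 0.54 after 24 h (both with SE 0.11), and control 24 h differed from control 0 h by 0.10 (SE 0.11). The 6 h value is a 2.95-fold level, and 273 of the 16705 genes had a larger increase at 6 h. These values chose the list, so nothing is read from their size. At 12 h the value was 0.49 without replicate 2 and 0.90 without replicate 1, the only left-out libraries in these comparisons that moved MAN1A1 by more than the replicate spread; replicate 2 is the library with the high liver and mesenchyme markers, whose part in this value was not tested.

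MAN1C1 (ENSG00000117643.15; GRCh38, chr1:25616791-25786206, plus strand), the third Golgi class I mannosidase, fell at every LatB time. Its level was 74.6, 70.3 and 62.6 CPM at control 0 h, and 43.1 and 46.2 CPM at control 24 h. At LatB 3 h it was 37.7, 36.2 and 31.1 CPM, and at 6 h it was 16.2, 15.1 and 13.7 CPM. At LatB 12 h the libraries had 20.3 and 15.9 CPM, and at 24 h they had 16.9, 15.4 and 14.97 CPM. Every LatB library was below every control library, and the libraries of 6, 12 and 24 h overlapped at about the same low level. Compared with control 0 h, MAN1C1 changed by -0.98 on the log2 scale after 3 h (SE 0.10, edgeR adjusted p = 8.59e-06). The change was -2.21 after 6 h (SE 0.11, edgeR adjusted p = 1.57e-08) and -1.94 after 12 h (SE 0.12, edgeR adjusted p = 2.39e-07). Compared with control 24 h it was -1.50 after 24 h (SE 0.11, edgeR adjusted p = 1.06e-06). At 6 h this was a 4.62-fold lower level, and 113 of the 16705 genes had a larger decrease.

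MAN1C1 was also lower in the control at 24 h than at 0 h, with no overlap (log2 fold change -0.63, SE 0.11, edgeR adjusted p = 0.0469). That call was lost when any 1 of the 5 control libraries was left out, at adjusted p from 0.0821 to 0.675. The choice of control therefore sets the size of the fall: against control 24 h in place of control 0 h, it was -0.35 at 3 h (edgeR adjusted p = 0.0262), -1.57 at 6 h and -1.31 at 12 h, each still called. The plot of CPM by group for MAN1A1 and MAN1C1 shows both courses.

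**Figure D1:**
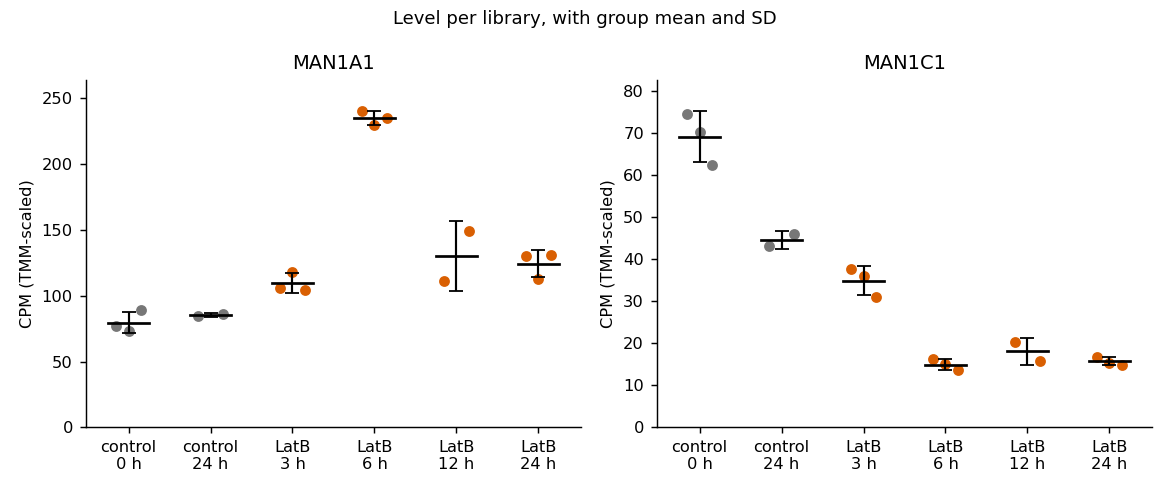
Level of MAN1A1 (left) and MAN1C1 (right) in CPM, scaled by TMM (edgeR's library scaling), in each of the 16 libraries; points are libraries (grey control, orange LatB), the horizontal bar is the group mean and the error bar the SD. MAN1A1 is highest at LatB 6 h, at 229.7 to 240.2 CPM, and MAN1C1 falls from 62.6 to 74.6 CPM at control 0 h to 13.7 to 16.2 CPM at LatB 6 h.

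MAN1A2, a close relative of MAN1A1, was called higher at no LatB time. It lay at 154.7, 141.7 and 154.1 CPM at control 0 h and at 146, 158 and 149 CPM at LatB 3 h, and these groups overlapped. At LatB 24 h it was 124, 114 and 111 CPM, below both control 24 h libraries (142 and 149 CPM), and the fall of -0.31 (SE 0.07) was called by edgeR at adjusted p = 0.00361; on the TPM scale it was not called (limma-trend, adjusted p = 0.296). At 6 h the log2 difference was -0.16 (SE 0.07) with adjusted p = 0.0562 in edgeR, and that value crossed the threshold under several alternatives, with adjusted p from 0.0122 to 0.769. MAN1B1, which trims mannose early in the pathway, was called in no comparison, with log2 differences from -0.17 to 0.15. Its control 0 h libraries had 106, 109 and 109.7 CPM, and its LatB libraries of 3, 6 and 24 h lay between 91.3 and 102 CPM. At LatB 12 h, replicate 1 had 91.6 CPM and replicate 2 had 119 CPM.

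On the TPM scale, which allows levels of different genes to be compared, the makeup of the Golgi class I transcripts turned over while their sum moved less. The sum of MAN1A1, MAN1A2 and MAN1C1 was 93.3 ± 5.31 TPM (SD, n = 3) at control 0 h, 82.2 ± 4.10 TPM at LatB 3 h, 107 ± 0.648 TPM at 6 h and 75.9 ± 6.01 TPM at 24 h, against 80.3 ± 5.13 TPM (SD, n = 2) at control 24 h. At LatB 12 h it was 83.1 ± 19.5 TPM (SD, n = 2), the widest spread of the groups. The LatB 6 h libraries, at 106 to 108 TPM, lay above those of control 0 h, at 87.4 to 97.6 TPM. MAN1A1 supplied 26.2 ± 2.35% of the sum at control 0 h, 33.8 ± 1.69% at control 24 h, 63.6 ± 2.28% at LatB 6 h and 52.5 ± 0.977% at LatB 24 h. MAN1C1 supplied 35.3 ± 3.25% at control 0 h and 25.1 ± 0.492% at control 24 h, and then 6.05 ± 0.267% at LatB 6 h and 9.18 ± 1.13% at LatB 24 h. For both genes the shares of the LatB libraries did not overlap those of the controls. These shares carry the rise that chose MAN1A1, and they were not tested.

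**Figure D2:**
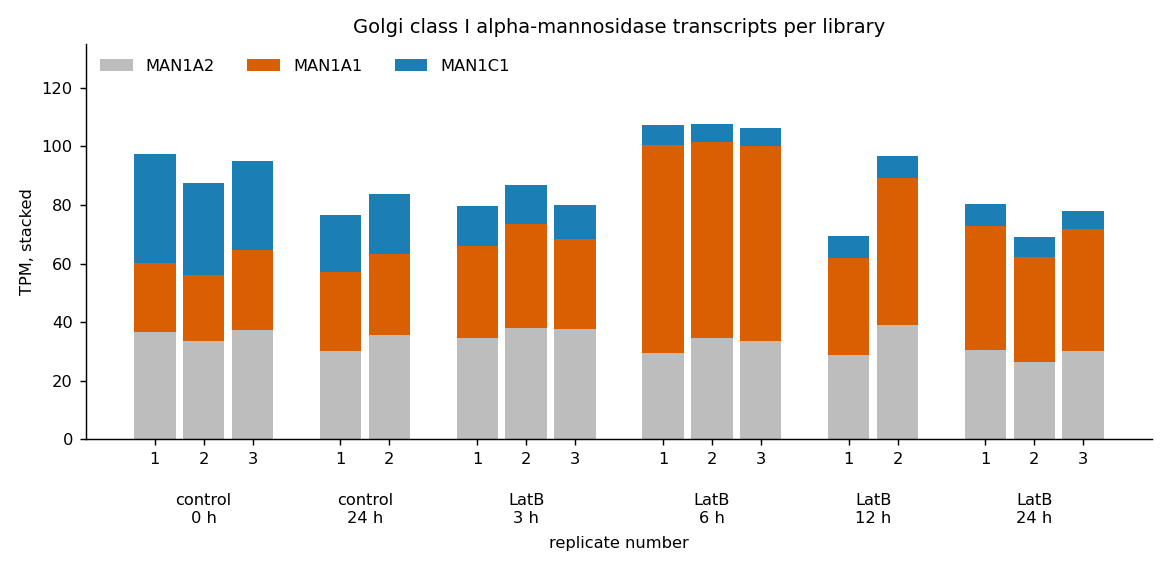
Stacked TPM of the 3 Golgi class I alpha-mannosidase genes in each library; each bar is a library, grouped by control or LatB time, and the colours are MAN1A2 (grey), MAN1A1 (orange) and MAN1C1 (blue). The blue part shrinks from 30.3 to 37.4 TPM at control 0 h to 6.30 to 6.82 TPM at LatB 6 h, while the orange part grows from 22.4 to 27.4 TPM to 66.5 to 71.0 TPM.

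Of the class II mannosidases, which act after MGAT1, MAN2A2 was called lower at 12 h and 24 h. It was 124, 126 and 118 CPM at control 0 h, 123 and 120.2 CPM at control 24 h, and 117, 118.2 and 118 CPM at LatB 6 h. It then lay at 85.1 and 79.4 CPM at LatB 12 h and at 74.3, 80.3 and 71.8 CPM at LatB 24 h. The 5 libraries of LatB 12 h and 24 h were below all 11 others, while LatB 3 h and 6 h overlapped with control 0 h. The fall was -0.58 (SE 0.06, edgeR adjusted p = 9.75e-06) at 12 h and -0.69 (SE 0.06, adjusted p = 2.16e-06) at 24 h, and both calls stood in every alternative tried. At 3 h and 6 h the log2 differences were 0.11 (SE 0.05) and -0.06 (SE 0.05), with edgeR adjusted p = 0.114 and 0.397.

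MAN2A1 had the highest TPM of the 10 genes at control 0 h and was called in no comparison. At LatB 24 h it was 144, 141 and 139 CPM against 164 and 173 CPM at control 24 h, without overlap, and the log2 difference of -0.25 (SE 0.10) had an edgeR adjusted p = 0.0699. Leaving out both 12 h libraries, which was tried after seeing the data, gave nearly the same difference with adjusted p = 0.00119. The 12 h libraries themselves disagreed on MAN2A1, with 151 CPM in replicate 1 and 217 CPM in replicate 2. With each of them alone, the 12 h difference was called in edgeR in opposite directions: -0.28 without replicate 2 (adjusted p = 0.00579) and 0.24 without replicate 1 (adjusted p = 0.0086). The liver and mesenchyme markers were likewise higher in replicate 2, and their part in the MAN2A1 value was not tested.

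The MGAT genes, whose enzymes add the first sugar of each branch, had log2 changes between -0.23 and 0.34 over the LatB comparisons. MGAT2, which starts the second branch, was called higher at 6, 12 and 24 h. It was 48.2, 42.8 and 41.9 CPM at control 0 h, 41.5 and 47.1 CPM at control 24 h, and 58.7, 55.6 and 54.2 CPM at LatB 24 h, where all libraries were above both controls. The rise was 0.18 (SE 0.06, edgeR adjusted p = 0.0331) at 6 h, 0.23 (SE 0.07, adjusted p = 0.0213) at 12 h and 0.34 (SE 0.07, adjusted p = 0.00200) at 24 h. The 24 h call stood in every alternative tried, whereas at 6 h it was lost without 5 of the 6 libraries compared, at adjusted p up to 0.182, and in limma-trend on log2(TPM + 1), at 0.08 with adjusted p = 0.478. At 12 h it was lost without 3 of the 5, at adjusted p up to 0.156.

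MGAT5, which starts a branch that can carry long sugar chains, was 149, 145 and 139.9 CPM at control 0 h, 156, 161 and 159 CPM at LatB 6 h, and 174 and 176 CPM at LatB 12 h. The 12 h libraries were above every other library. The rise was 0.13 (SE 0.05, edgeR adjusted p = 0.0455) at 6 h, 0.27 (SE 0.06, adjusted p = 0.00188) at 12 h and 0.18 (SE 0.06, adjusted p = 0.0214) at 24 h. The 6 h call was lost without 5 of the 6 libraries, and its direction turned on the TPM scale, to -0.15 in limma-trend on log2(TPM + 1) with adjusted p = 0.124. On that scale the 12 h rise was not called either, at adjusted p = 0.217. MGAT5 had several transcripts: the full-length MGAT5-202 supplied 95.7% of its reads and 59.8% of its TPM at control 0 h, and short transcripts supplied most of the rest of the TPM. Without 3 of the 5 libraries compared, the 24 h call was lost too, at adjusted p up to 0.275, and on log2(TPM + 1) it was lost at a log2 difference of 0.08 (limma-trend, adjusted p = 0.505).

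MGAT1, which adds the first N-acetylglucosamine and opens the path to complex glycans, was lower early and higher late. It was 95.4, 95.5 and 93.1 CPM at control 0 h, 75.0, 84.4 and 83.6 CPM at LatB 3 h, and 88.9, 84.1 and 82.2 CPM at LatB 6 h. At 24 h it was 97.8, 92.5 and 94.4 CPM with LatB and 81.5 and 86.2 CPM in the control, so each comparison was without overlap. The log2 changes were -0.23 (SE 0.05, edgeR adjusted p = 0.00628) at 3 h, -0.15 (SE 0.05, adjusted p = 0.0344) at 6 h and 0.18 (SE 0.06, adjusted p = 0.0315) at 24 h. Against control 24 h in place of control 0 h, the values were -0.05 at 3 h and 0.02 at 6 h, and against control 0 h the 24 h value was 0.00340; none of the 3 was called, with edgeR adjusted p = 0.570, 0.824 and 0.967. LatB 3 h and 6 h libraries overlapped with the control 24 h libraries. The 6 h call was lost without 5 of the 6 libraries compared and the 24 h call without 4 of the 5, at adjusted p up to 0.0805 and 0.232. On log2(TPM + 1) the 24 h difference was 0.03 and not called (limma-trend, adjusted p = 0.879).

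MGAT4A, which starts a further branch on the other arm, was 37.5, 33.3 and 37.9 CPM at control 0 h and 45.9, 46.8 and 42.5 CPM at LatB 6 h, with no overlap. Its rise of 0.31 (SE 0.08) was called at 6 h (edgeR adjusted p = 0.00603) and kept its call without any 1 library. It was lost on the TPM scale, without scaling and against control 24 h, with adjusted p up to 0.566. At 3, 12 and 24 h the log2 differences were 0.21, 0.11 and 0.07, and none was called.

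**Figure D3:**
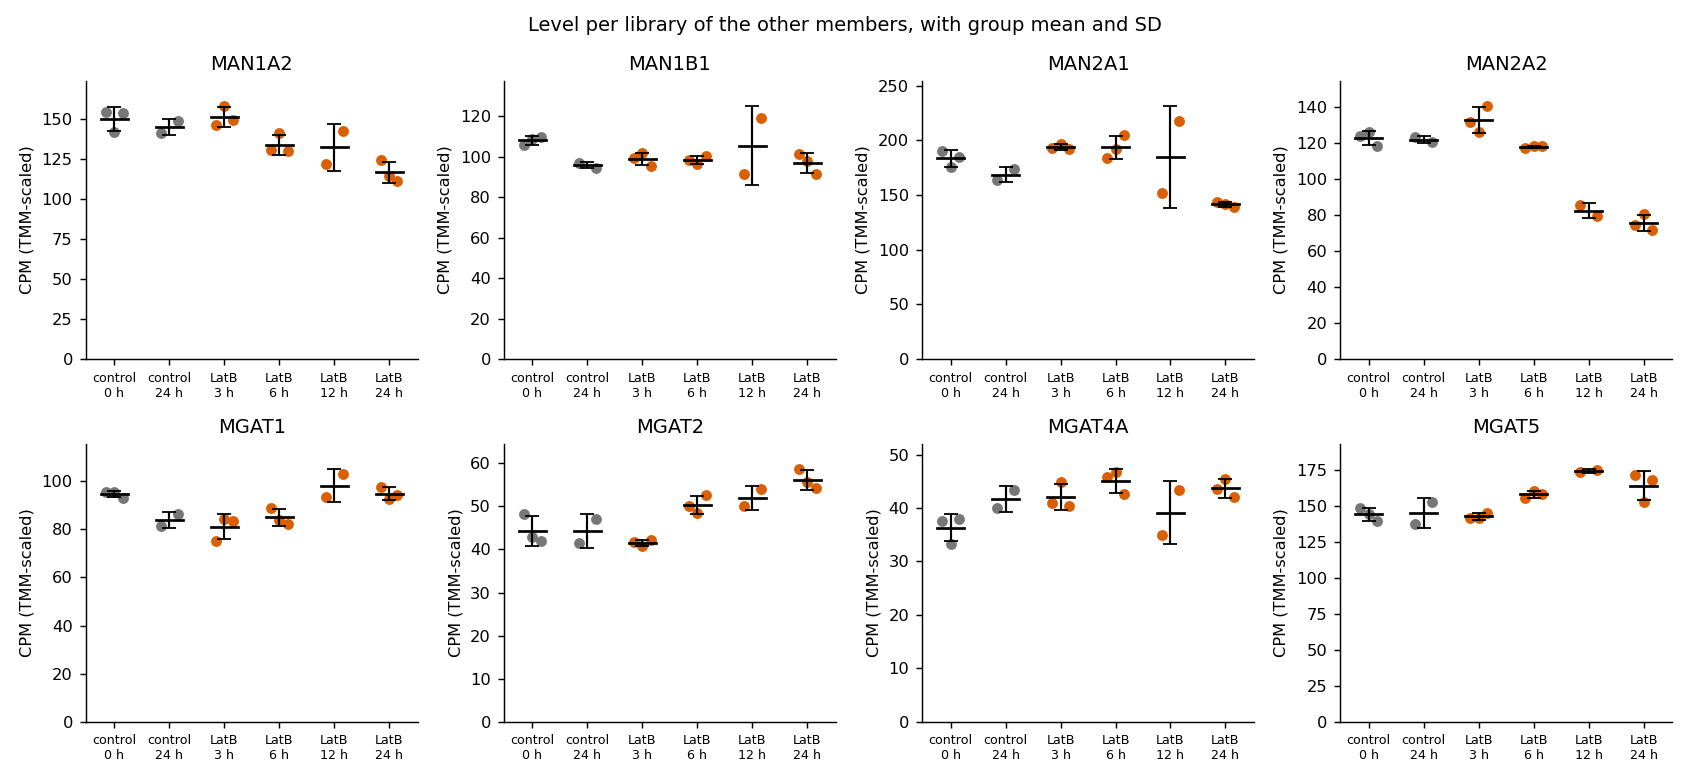
CPM of the 8 other members in each library; points are libraries (grey control, orange LatB), the horizontal bar is the group mean and the error bar the SD. MAN2A2 steps down at LatB 12 h and 24 h, to 71.8 to 85.1 CPM, MGAT2 reaches 54.2 to 58.7 CPM at LatB 24 h, and the 2 libraries of LatB 12 h lie far apart for MAN2A1.

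Counted over the 9 members other than MAN1A1, 2 were called at 3 h, both lower (MAN1C1 and MGAT1), where 31.6% of all genes tested were called (16.8% higher, 14.7% lower). At 6 h 5 were called, 3 higher and 2 lower, beside 43.3% of all genes (22.9% higher, 20.4% lower). At 12 h 4 were called, 2 higher and 2 lower, beside 35.8% (19.1% higher, 16.8% lower). At 24 h 6 were called, 3 higher and 3 lower, beside 40.8% (21.9% higher, 18.8% lower). In the control over 24 h 1 was called, lower, beside 0.251% (0.0299% higher, 0.221% lower). The median log2 change of the 9 was -0.02 at 3 h, -0.06 at 6 h and 0.01 at both 12 h and 24 h, against medians of 0.00 at 3 h, -0.01 at 6 h, 0.01 at 12 h and 0.01 at 24 h over all genes tested. With 9 members, the counts at the LatB times were not set apart from the background of all genes, and members were called in both directions. The 6 h count rests on small changes: it was 2 to 4 without any 1 library. Without scaling between libraries, the 3 rises at 6 h (MGAT2, MGAT4A and MGAT5) were not called, and MAN1A2, MAN1B1 and MAN2A2 were called lower. That alternative moved the median of all genes at 6 h to -0.10, and split the calls into 2708 higher and 4475 lower, against 3819 and 3411 with scaling.

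**Figure D4:**
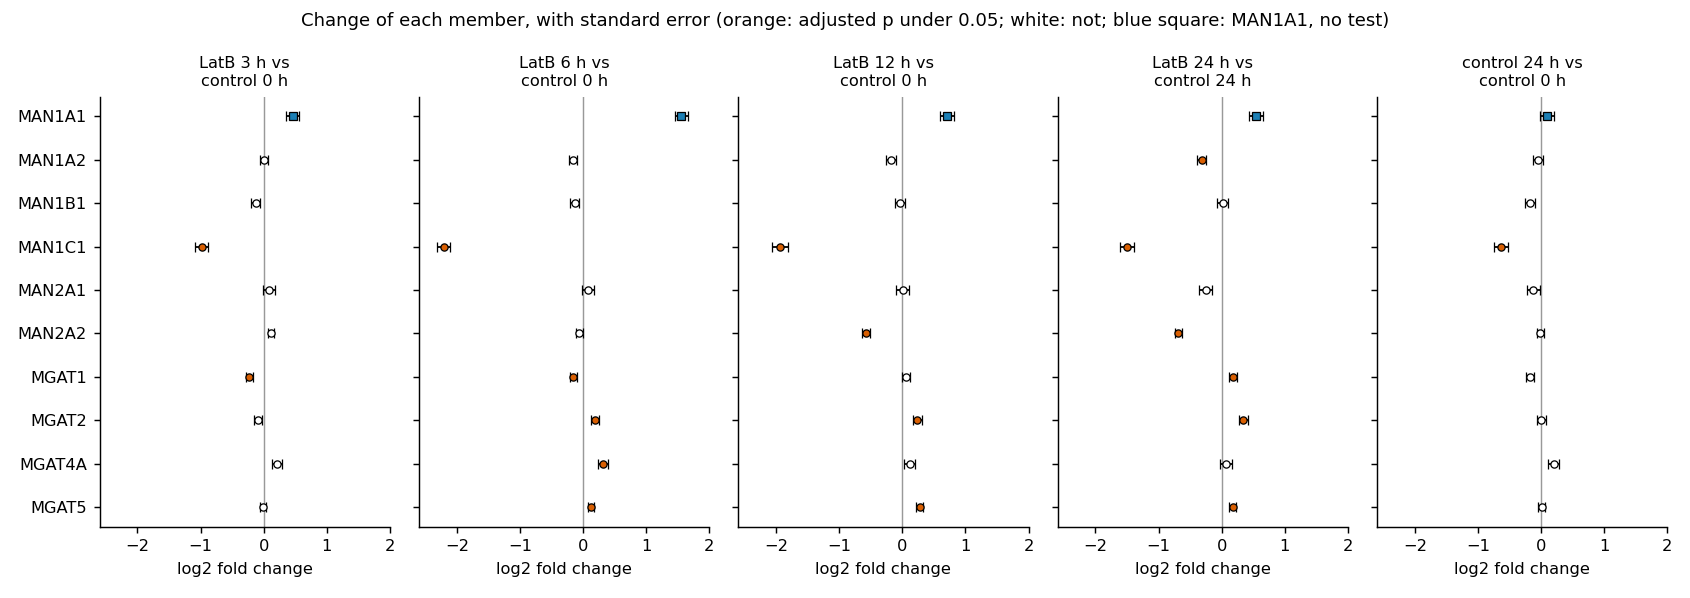
Log2 fold change of each member (rows) in the 5 comparisons (panels); points are edgeR estimates with the standard error, orange where the adjusted p is under 0.05, white where it is not, and a blue square for MAN1A1, which was not tested. At LatB 6 h MAN1A1 and MAN1C1 lie furthest from 0, on opposite sides, at 1.56 and -2.21, and MAN2A2 moves to the left at 12 h and 24 h.

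A test of the difference between the 24 h effect and the 6 h effect, each against its own control, called 3 of the 9 members, beside 22.5% of all genes (11.4% higher, 11.1% lower). MAN2A2 fell further at 24 h than at 6 h, by -0.63 (SE 0.08, edgeR adjusted p = 0.000145). For MAN1C1 the fall was smaller at 24 h, by 0.70 (SE 0.15, edgeR adjusted p = 0.00572), and for MGAT1 the effect was higher at 24 h by 0.33 (SE 0.08, adjusted p = 0.0107). The LatB levels of MAN1C1 at 6 h and 24 h overlapped (13.7 to 16.2 and 14.97 to 16.9 CPM), and its 2 controls did not, so with the controls exchanged the difference was -0.56 (edgeR adjusted p = 0.0206). For MGAT1 it was then -0.02. For MAN1A1 the difference was -1.02 (SE 0.15), given without a test.

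In the order of TPM at control 0 h, MAN2A1 led with 69.9 ± 2.15 TPM (SD, n = 3), followed by MGAT1 (59.0), MAN1B1 (54.9), MAN2A2 (52.1) and MGAT5 (43.6), and the libraries of neighbours in this order did not overlap. MAN1A2 (35.8) and MAN1C1 (33.0) overlapped, as did MGAT2 and MAN1A1, both at 24.5 TPM, and MGAT4A was last at 10.01 TPM. At LatB 6 h MAN1A1, at 68.1 ± 2.51 TPM, overlapped with MAN2A1 (71.7 ± 5.23 TPM) at the top, and MAN1C1, at 6.48 ± 0.292 TPM, was last. At LatB 24 h MAN1A1 (39.9 TPM) took place 5 and overlapped with MGAT5 (44.3 TPM), and MAN1C1 was last again at 6.94 ± 0.712 TPM. The summed class II level (MAN2A1 and MAN2A2) was 122 ± 1.98 TPM at control 0 h, 117 ± 0.881 TPM (n = 2) at control 24 h and 87.9 ± 2.85 TPM at LatB 24 h.

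MAN1A1 and MGAT2 were each measured through a single transcript, whereas MAN1C1 had 8 and its 3 main protein-coding transcripts changed unequally. MAN1C1-203, the canonical one, begins at the gene's first base, whose promoter window is printed above, and was 13.2, 12.7 and 10.5 TPM at control 0 h and 2.84, 2.32 and 2.49 TPM at LatB 6 h. MAN1C1-201, which begins at position 25617850, was 8.91, 5.31 and 8.70 TPM at control 0 h and 2.75 and 4.07 TPM at control 24 h. It was 0, 1.57 and 0.512 TPM at LatB 6 h and was listed at 0 in all 5 libraries of LatB 12 h and 24 h. MAN1C1-202, which begins far downstream at 25709602, had a mean of 3.85 ± 1.88 TPM at control 0 h, 2.58 ± 0.840 TPM at LatB 24 h and 4.57 ± 0.617 TPM (n = 2) at control 24 h. Its share of the gene's TPM was 11.9 ± 6.31% at control 0 h, 22.8 ± 4.08% at control 24 h and 37.8 ± 14.4% at LatB 24 h, and the shares at LatB 24 h and control 24 h overlapped. Salmon divides reads among overlapping transcripts, so these shares carry its uncertainty and were not tested.

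The 5 genes whose log2 CPM followed MAN1A1 most closely over the 16 libraries, among 10415 genes with a mean log2 CPM of at least 3, were OSBPL8 (Pearson r = 0.97, Spearman rho = 0.92), JADE3 (0.97 and 0.93), CARMIL1 (0.95 and 0.83), ARHGEF12 (0.95 and 0.94) and RAB11A (0.95 and 0.90). OSBPL8 went from 93.6 CPM at control 0 h to 143 CPM at LatB 6 h and 109.8 CPM at LatB 24 h, and JADE3 from 24.0 to 45.2 and 32.4 CPM. CARMIL1, a regulator of actin capping, went from 84.4 to 170.4 and 119 CPM. ARHGEF12 went from 266 to 451 and 349 CPM, and RAB11A, a GTPase of recycling endosomes, from 229.8 to 318 and 275 CPM. All 5 had their highest mean at LatB 6 h, as MAN1A1 did. They were picked for following MAN1A1, so this shared peak follows from the choice and nothing is read from it. These correlations describe libraries that share their treatment groups. Ranked by Spearman's rho, none of the 5 was among the first 5, and on log2(TPM + 1) 3 of them were. Among the members, MAN1C1 had r = -0.82 and rho = -0.89 with MAN1A1, and MGAT4A had r = 0.65 and rho = 0.72. The remaining members had r from -0.34 (MAN1A2) to 0.49 (MGAT5). Of the genes compared, 2.04% had a lower r than MAN1C1 and 85.8% a lower r than MGAT4A.

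The rest of the pathway was read from 6 lists of 107 genes, of which 106 were tested; NEU1 was not analysed here. At 6 h 38 list genes were called higher and 17 lower, which is 51.9% called, beside 43.3% of all genes, and at 24 h 36 were higher and 16 lower (49.1%, beside 40.8%). In the control over 24 h 0 of 106 were called by edgeR, where 42 of all genes were called and 1414 had an unadjusted p under 0.05. At 3 h 25 were called higher and 15 lower (37.7%, beside 31.6%), and at 12 h 28 higher and 18 lower (43.4%, beside 35.8%). The log2 changes given for list genes below are edgeR estimates with standard errors of 0.05 to 0.31 and adjusted p of at most 0.0408.

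The oligosaccharyltransferase list, the ER complex that moves the finished precursor onto proteins, had 6 of 12 genes called higher and 0 lower at 6 h, with a median log2 change of 0.14, and 6 higher and 0 lower at 24 h, with a median of 0.21. All-gene medians were -0.01 and 0.01. Of all genes tested, 22.9% were called higher and 20.4% lower at 6 h, and 21.9% and 18.8% at 24 h. These shares are the background for this list and for every list below, and no list was tested as a set. RPN1 rose by 0.39 at 6 h and 0.36 at 24 h, and RPN2 by 0.31 and 0.38, both being structural subunits; the catalytic STT3A rose by 0.27 at 24 h and the accessory subunit TUSC3 by 0.26 at 6 h. Without scaling, 3 were called higher and 0 lower at 6 h.

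The lipid-linked precursor list, enzymes that assemble the sugar tree on dolichol, had 9 of 24 called higher and 6 lower at 6 h (median 0.05), and 13 higher and 1 lower at 24 h (median 0.19). Without scaling, the 6 h split was 9 higher and 10 lower, with a median of -0.04. The mannosyltransferases ALG9, ALG2 and ALG1 rose by 0.51, 0.49 and 0.39 at 6 h, while the glucosyltransferase ALG6 and the mannose-donor subunit DPM3 changed by -0.46 and -0.45. At 24 h SRD5A3, which makes dolichol, rose by 0.70, ALG3 by 0.56 and ALG1 by 0.54, and ALG10B was the 1 gene called lower, at -0.30.

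The ER trimming and folding list had 9 of 16 called higher and 2 lower at 6 h (median 0.17), and 3 higher and 3 lower at 24 h (median 0.00). Without scaling, the 6 h split was 3 higher and 3 lower. EDEM3, a mannosidase that marks misfolded proteins for disposal, rose from 137 to 325 CPM at 6 h (log2 1.24, SE 0.08). The lectin chaperone CALR rose by 0.27 at 6 h and 0.32 at 24 h and its partner PDIA3 by 0.24 and 0.22, while MANEA, an endomannosidase, changed by -0.62 at 6 h. EDEM2, a relative of EDEM3, changed by -0.47 at 6 h and -0.95 at 24 h. At 24 h the folding sensor UGGT1 rose by 0.50, and its relative UGGT2 and the cargo lectin LMAN1 changed by -0.32 and -0.21.

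The list of later Golgi steps had 5 of 18 called higher and 3 lower at 6 h (median -0.03), and 6 higher and 4 lower at 24 h (median 0.06). Without scaling, the 6 h split was 3 higher and 5 lower. At 6 h B3GNT2, which extends sugar chains, rose by 0.39, the sialyltransferase ST3GAL4 by 0.33 and the galactosyltransferase B4GALT3 by 0.29, while MGAT3, which adds the bisecting sugar, changed by -0.58, B4GALT2 by -0.51 and ST3GAL3 by -0.50. At 24 h MGAT5B, a relative of MGAT5, went from 0.549 to 2.06 CPM (log2 1.89, SE 0.31), the sialyltransferase ST6GAL2 rose by 0.77 and ST3GAL4 by 0.44. In the other direction at 24 h were ST3GAL6 (-0.58), B4GALT1 (-0.47) and B4GALT2 (-0.43).

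The nucleotide sugar list had 5 of 24 called higher and 5 lower at 6 h (median 0.00), and 7 higher and 4 lower at 24 h (median -0.11). Without scaling, the 6 h split was 3 higher and 7 lower. GFUS, an enzyme of GDP-fucose synthesis, rose at 6 h (6.02 to 14.01 CPM, log2 1.21, SE 0.23), and GMDS, which acts in the same synthesis, rose at 24 h (13.2 to 35.5 CPM, log2 1.42, SE 0.14). SLC35A2, which carries UDP-galactose into the Golgi, rose by 0.43 at 6 h and 0.38 at 24 h, NAGK by 0.39 at 6 h and the phosphomannomutase PMM2 by 0.39 at 24 h. UGP2, which makes UDP-glucose, changed by -0.75 at 6 h and -0.54 at 24 h. FCSK, which feeds GDP-fucose by salvage, was lower at 6 h (-0.52), and the transporter SLC35A3 and CMAS, which activates sialic acid, were lower at 24 h (-0.35 and -0.24).

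The glycan breakdown list had 4 of 12 called higher and 1 lower at 6 h (median 0.06), and 1 higher and 4 lower at 24 h (median -0.05). Without scaling, the 6 h split was 2 higher and 1 lower, with a median of -0.03. The lysosomal galactosidase GLB1 rose by 0.28 at 6 h and 0.40 at 24 h, and FUCA2 by 0.54 and NGLY1 by 0.18 at 6 h. ENGASE, which releases glycans in the cytosol, changed by -0.84 at 6 h and -0.71 at 24 h, and at 24 h the cytosolic mannosidase MAN2C1 changed by -0.81. Among the genes named from the 6 lists, no direction turned without scaling, but PDIA3, ST3GAL4, NAGK and NGLY1 at 6 h and ALG10B at 24 h were then no longer called.

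**Figure D5:**
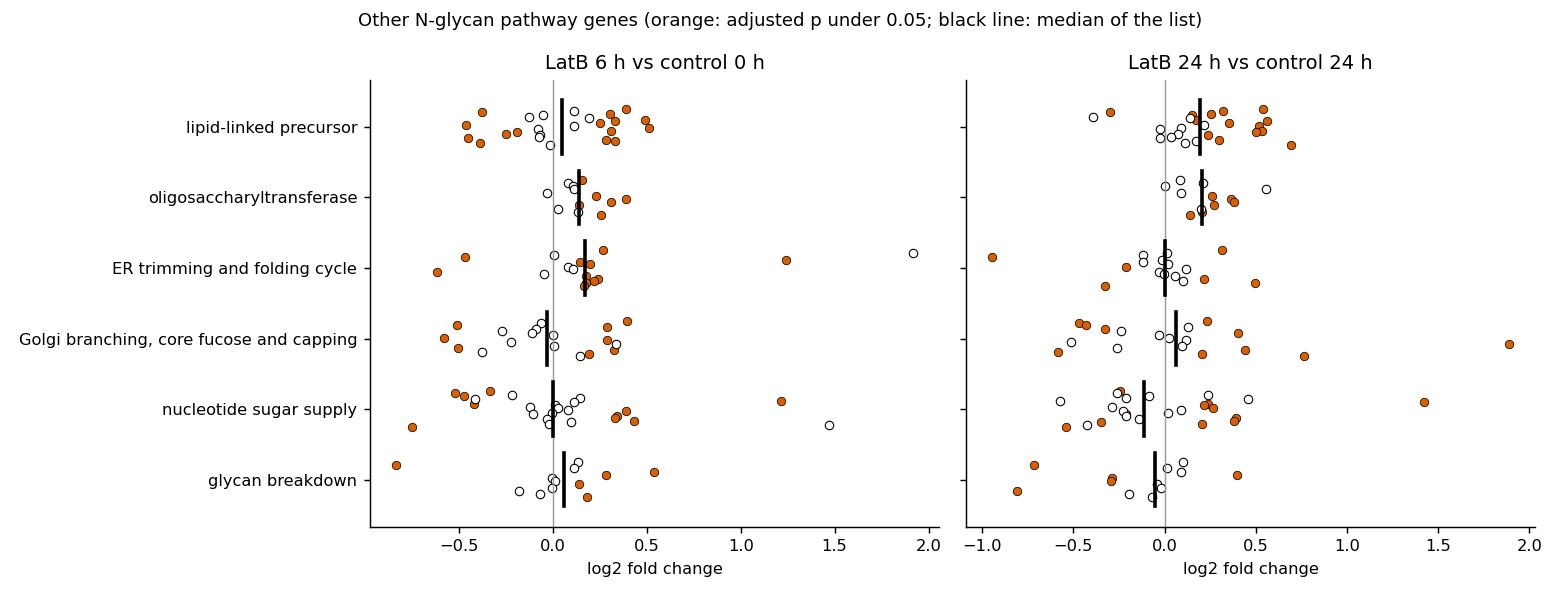
Log2 fold change of each tested gene of the 6 pathway lists (rows) at LatB 6 h against control 0 h (left) and LatB 24 h against control 24 h (right); points are genes, orange where the edgeR adjusted p is under 0.05, spread vertically for legibility, and the black line is the list's median. The oligosaccharyltransferase row has 6 called genes in each panel, all to the right of 0, and EDEM3 at 1.24 (left) and MGAT5B at 1.89 (right) lie far from their lists; the white points furthest to the right in the left panel are genes that were not called.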

How the data were processed

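Poly(A) RNA of 16 libraries from 6 labelled groups was measured. The authors deposited estimated counts and TPM per transcript (TPM, transcripts scaled for length and depth), with a table for every library; per the labels' processing notes these come from Salmon 1.3.0 on hg38. The study's methods describe STAR with GENCODE release 32 instead, and whether counting used strand is not given in the sources used here, so reads of antisense genes that overlap members cannot be told apart from theirs. The authors' deposited table of log2 fold changes and p-values was not used, nor were its 16 per-sample columns.

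Of 177456 transcripts, 165533 were joined to genes by versionless identifier through GENCODE release 44; 2.92% to 3.17% of reads per library stayed unmatched and were left out. Counts were summed per gene and rounded. The quasi-likelihood test of edgeR 4.0.16 (R 4.3.3, two-sided) was fitted to all 6 groups at once with TMM scaling (factors 0.947 to 1.05) and filterByExpr by group, with Benjamini-Hochberg adjustment over 16705 genes and calls at adjusted p under 0.05. The SE is the log2 fold change divided by the square root of F. CPM uses TMM-scaled library sizes. At 23609727 to 33515398 reads per library, MAN1C1, the lowest member in TPM under the drug, still rested on 330.0 to 503 reads per library at 6, 12 and 24 h. The script was tested on simulated counts.

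Named genes were all members, per pathway list the 3 largest called changes in each direction at 6 h and 24 h, the 5 genes most correlated with MAN1A1, and cell type markers. Some list genes that this rule names are not reported here. The members, lists, tests and alternatives were chosen with earlier results of these data known. Alternatives were DESeq2 1.42.0, RLE in place of TMM, unscaled libraries, all genes unfiltered or those averaging 50 counts or more, a replicate block, a fit to the compared groups alone, an offset for effective length, protein-coding transcripts only, limma-trend (limma 3.58.1) on log2(TPM + 1) and log2(TPM + 0.1), the other control, and each library left out; leaving out both 12 h libraries was added after seeing the data.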

Additional observations from a re-analysis of the deposited data

Results flagged for a closer look

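The effect of latrunculin B against its own control differed between 24 h and 6 h for 3 members in edgeR's test of the difference: by 0.70 for MAN1C1 (adjusted p = 0.00572), by -0.63 for MAN2A2 (adjusted p = 0.000145) and by 0.33 for MGAT1 (adjusted p = 0.0107), on the log2 scale. The LatB libraries of 6 h and 24 h did not overlap for MAN2A2 (117 to 118.2 and 71.8 to 80.3 CPM) or MGAT1 (82.2 to 88.9 and 92.5 to 97.8 CPM), and they overlapped for MAN1C1, whose controls did not. The controls of MGAT1 did not overlap either (93.1 to 95.5 CPM at 0 h and 81.5 to 86.2 CPM at 24 h). With the controls exchanged, the difference was -0.016 for MGAT1 and -0.56 for MAN1C1. No group had 4 or more libraries, and Dixon's test for single libraries that lie far from their group was not run.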

How the results depend on the processing

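Of the changes of single members under all alternatives, 1012 kept their direction and their side of the threshold, 82 lost a call, 36 gained one, 7 turned and 3 values of MAN1A1 moved; the cause was not tested unless stated. The turned values were MGAT5 at 6 h, at -0.056 with the effective-length offset and -0.15 in limma-trend with either pseudocount; MAN2A1 at 12 h, at -0.28 without LatB 12 h replicate 2; and, with the other control as reference, MGAT1 at 6 h (0.020) and, for the difference of 24 h and 6 h, MGAT1 (-0.016) and MAN1C1 (-0.56). With that control the MAN1A1 difference was -0.82. MAN2A1 at 12 h kept its direction without LatB 12 h replicate 1 and gained a call, at 0.24.

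The number of members called at 3 h was 4 with only the compared groups and 4 without both 12 h libraries, and 1 with the other control. At 6 h it was 2 without the filter, 2 with the offset, 3 in limma-trend with either pseudocount and 1 with the other control. In limma-trend with either pseudocount it was 2 at 12 h and 3 at 24 h. In the control over 24 h it was 0 with RLE, without scaling, with protein-coding transcripts and in limma-trend. Leaving out 1 library gave 2 to 2 at 3 h, 2 to 4 at 6 h, 3 to 6 at 12 h, 4 to 6 at 24 h, 0 to 0 in the control and 2 to 3 for the difference. At 6 h it was 3 without control 0 h replicate 2 or LatB 6 h replicate 1 or 2, and 2 without control 0 h replicate 3 or LatB 6 h replicate 3.

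Over all genes, calls at 12 h numbered 2828 with only the compared groups and 3981 in limma-trend on log2(TPM + 0.1). For the difference they numbered 2216 with the offset and 2159 and 2121 in limma-trend. In the control over 24 h they numbered 267 in DESeq2, 8 with RLE, 7 without scaling, 91 without the filter, 87 with a mean of at least 50 counts, 218 with only the compared groups, 8 with the offset, 66 with protein-coding transcripts, 2 and 7 in limma-trend and 219 without the 12 h libraries. Leaving out 1 library gave 4145 to 4720 at 3 h, 5934 to 6618 at 6 h, 4826 to 6162 at 12 h, 4034 to 6424 at 24 h, 2 to 9 in the control and 2333 to 3675 for the difference; 4034 and 2333 were without control 24 h replicate 1. Without scaling, calls at 3 h split into 1931 higher and 3411 lower against 2810 and 2461, and for the difference into 3156 and 1209 against 1898 and 1856, with a median shift to 0.12.

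The replicate numbers gave no clear sign of pairing. Same-numbered libraries had correlated deviations over 0.1 in 2 of 18 pairs (-0.097 to 0.116), and the own number matched best in 10 of 36 combinations. Such correlations cannot exclude that same-numbered libraries shared a differentiation. With the replicate block, members called at 6 h were 3, and calls over all genes in the control over 24 h were 6.

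With 2 libraries at 12 h and at control 24 h, comparisons that use these groups have the least precision, and the lone library left after leaving 1 out was assumed to vary like the other groups. The 16 libraries include no matched controls of 3, 6 and 12 h, so time in culture and drug cannot be told apart at those times.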
